A study of Drosophila melanogaster with 4 samples.

Results

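The Rab GTPase genes encode small switch proteins of membrane traffic, and 29 of the 14162 gene symbols in the expression tables carry a name that begins with Rab or RabX followed by a digit. The rule uses the name alone and no measured value, though the family was picked with earlier results of these data known. Another 4 genes of the family stand in the tables under other symbols (Rab-RP3, Rab-RP4, chrw and ltd, which RefSeq names Rab19, Rab18, RabX1 and Rab32), and they are given beside the 29 and not counted among them. The RNA came from dvpdf neurons of Drosophila melanogaster brains. Of the 4 libraries, 2 are labelled NonA RNAi, in which nonA was the target of RNA interference, and 2 are labelled control. Beyond the word dvpdf, the labels name no driver line, interference construct, age, sex or time of day for either group. They do not say what the controls carry or whether replicates came from separate flies.

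A Rab protein is active and bound to a membrane when it holds GTP, and is extracted into the cytosol when it holds GDP. Each member marks its own set of membranes and recruits motors, tethers and other effectors there, so that the family as a whole covers the route from the endoplasmic reticulum to the cell surface and the route back through endosomes to the lysosome. In neurons, Rab3 and Rab27 are best known for the vesicles that release transmitter and peptides, and Rab5, Rab7 and Rab11 for the endosomes of axons and dendrites.

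Reads assigned to genes numbered 9673275 and 8558125 in NonA RNAi replicates 1 and 2, against 8419248 and 9832771 in control replicates 1 and 2. Levels are given in CPM, the raw reads of a gene scaled to the sum of all gene reads of its library (counts per 1000000), so that 1 read was worth between 0.102 and 0.119 CPM. The targeted gene was lower in 1 of the NonA RNAi libraries: nonA stood at 168 and 283 CPM in NonA RNAi replicates 1 and 2, against 256 and 241 CPM in the controls. Since the nonA level does not bear out the label of NonA RNAi replicate 2, each direction below rests on the label. The neuropeptide gene Pdf, a marker of these cells, stood at 18436 and 86575 CPM under the NonA RNAi label, against 4979 and 2159 CPM in the controls, and took 8.66% of all gene reads in NonA RNAi replicate 2. RNA of other cells was present too. Summed over 12 photoreceptor markers the level was 132 and 257 CPM in the NonA RNAi libraries, against 371 and 519 CPM in the controls, with 8 of the 12 below both controls. Over 10 glial markers it was 418 and 2292 CPM against 1963 and 6210 CPM, with 2 of the 10 below both controls, and over 12 fat body and hemocyte markers 1087 and 533 CPM against 1862 and 597 CPM, with 5 of the 12 below. Of the photoreceptor markers, 6 and 0 were at 0 in NonA RNAi replicates 1 and 2, against 1 and 0 in control replicates 1 and 2, and of the fat body and hemocyte markers 9 and 4, against 1 and 3. Lsp2 of the fat body was at 0 under the NonA RNAi label and read in both controls. Lsp1alpha, also at 0 under that label, had 1551 and 2 reads in control replicates 1 and 2. Lsp1beta and fit were at 0 in control replicate 2 as well as under that label. Other markers were highest in a NonA RNAi library. In NonA RNAi replicate 2 these were Rh5, Rh6 and norpA of photoreceptors, at 14.5, 6.43 and 182 CPM. Their highest control values were 7.84, 5.80 and 171 CPM. Also highest there were Eaat1, Gat and alrm of glia, at 354, 414 and 182 CPM. The same held for nimC1 of hemocytes, at 43.8 CPM, and Fbp1 of the fat body, with 3 reads. Pxn of hemocytes was highest in NonA RNAi replicate 1, at 955 CPM. Each glial marker was read in each library, repo at 36.0 and 37.4 CPM against 15.6 and 124 CPM. Over 7 neuron markers the sum was 2126 and 3892 CPM in the NonA RNAi libraries, against 3770 and 2463 CPM in the controls, with 0 of the 7 apart between the groups. Over 6 clock neuron markers, Pdf included, it was 23211 and 89881 CPM against 8011 and 3884 CPM, with 4 of the 6 above both controls. The part of these cell types in the Rab results was not tested. In libraries of pooled cells, fewer cells of a type and less RNA per cell cannot be told apart.

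Most of the Rab genes were read in these libraries, which held RNA of other cells besides the neurons. Of the 29 members, 23 reached a mean of 1 CPM and entered the test, and the other 6 had no read in any library. The Rab genes together made up 0.356% and 0.471% of gene reads in NonA RNAi replicates 1 and 2, against 0.572% and 0.463% in control replicates 1 and 2, with exact (Clopper-Pearson) 95% binomial intervals of 0.352% to 0.360%, 0.467% to 0.476%, 0.567% to 0.578% and 0.459% to 0.467%, which cover counting error only. NonA RNAi replicate 2 lay inside the span of the controls, so the groups overlapped in this sum. Of the 21 members with a mean of at least 10 CPM, 13 had their lowest value in NonA RNAi replicate 1 and 0 their highest, whereas of the 7277 genes with that mean 30.5% had their lowest and 34.7% their highest value in that library.

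Levels can be set between genes only per length, and for this the CPM was divided by the exon length of the Ensembl BDGP6.54 annotation, which is of another build than the dm3 build named by the submitters. On this scale Rab2, which acts between the endoplasmic reticulum and the Golgi, was the most abundant member, at a mean of 374 CPM per exon kilobase over the 4 libraries. Rab3, of synaptic vesicles, followed at 275, Rab7, of late endosomes and lysosomes, at 220.0, and Rab1, of the step from endoplasmic reticulum to Golgi, at 178. Rab4, Rab5, Rab11 and Rab14 lay between 121 and 151 CPM per exon kilobase. The range over libraries of each of these 8 genes overlapped that of its neighbour in the order, so single ranks among them are not resolved. Rab2 and Rab3 held the first and second place in 3 of the 4 libraries, and Rab7 the first place in control replicate 2. The second place depended on the length used. By the deposited RPKM, which divides by another length, the first places were the same. Rab3 then came behind Rab7 in NonA RNAi replicate 2 (51.8 against 57.3) and behind Rab4 in control replicate 1 (57.0 against 57.3). At the other end, Rab40 and Rab21 stood at 19.2 and 14.7, and RabX2 and Rab23 at 3.13 and 2.59 CPM per exon kilobase. Rab21 did not overlap with RabX2, which lay at 0 to 10.1, and so marked the step between members read in each library and members read in some.

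**Figure D1:**
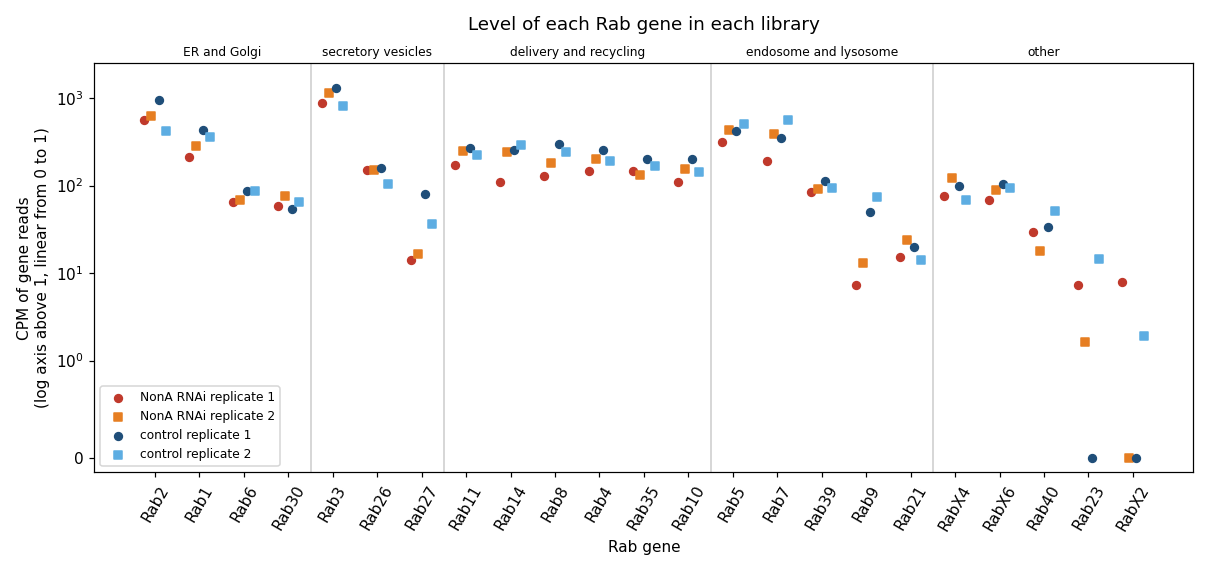
Levels in CPM of the 23 Rab genes with a mean of at least 1 CPM (vertical axis logarithmic above 1 and linear from 0 to 1), 1 point per library, grouped along the horizontal axis by the membranes they are known for; no mean is drawn. Rab23 and RabX2 had means under 10 CPM. Leaving them aside, Rab9 and Rab27 show the widest distance between the NonA RNAi libraries (red and orange) and the controls (dark and light blue). The groups of Rab3, Rab26 and Rab11 overlap.

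The comparison of the groups asked which of these genes differed with the NonA RNAi label. Among the 21 members with a mean of at least 10 CPM, Rab9 and Rab27 had the largest fitted folds, 6.11-fold and 3.77-fold lower under the NonA RNAi label. Neither passed the quasi-likelihood test of edgeR, with p-values adjusted by Benjamini-Hochberg over all 9404 genes tested and a threshold of 0.05. In that test 0 of the 23 members passed, beside 0.0% of all genes. At an unadjusted p under 0.05 there were 2 lower members, Rab9 and Rab27, beside 3.57% of all genes, and 0 higher members, beside 1.29%. DESeq2, run as an alternative, called 1 lower member, Rab9, beside 1.25% of all genes, and 0 higher, beside 0.255%. With 2 libraries a group, an exact two-sided permutation test of a single gene cannot give a p below 0.333, and each p-value reflects the spread of these 4 libraries alone.

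In direction the members leaned to lower values under the NonA RNAi label. The fitted log2 fold (NonA RNAi over control) was below 0 for 18 and above 0 for 5 of the 23 members tested, where 50.4% of all genes tested were below 0. The median log2 fold was -0.34 over the 23 members and -0.01 over all genes tested. For 10 of the 23 members each NonA RNAi library was below each control, beside 17.5% of all genes tested, and for 0 of the 23 members above both, beside 15.2%. The distance of the median from that of all genes depended on NonA RNAi replicate 1: without it the median was -0.17 over the members and -0.14 over all genes, while 16 of the 22 members then tested were below 0, beside 58.1% of all genes. With each other library left out in turn the median was -0.52 to -0.23 over the members and -0.06 to 0.06 over all genes. The scaling mattered as well: 7 of the 10 (Rab1, Rab6, Rab8, Rab9, Rab27, Rab35 and Rab40) stayed below both controls under TMM scaling, median-of-ratios scaling and scaling without Pdf, whereas Rab39 and RabX6 did so under none of these and Rab14 under median-of-ratios scaling alone. The share of all genes below both controls was counted in CPM alone.

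**Figure D2:**
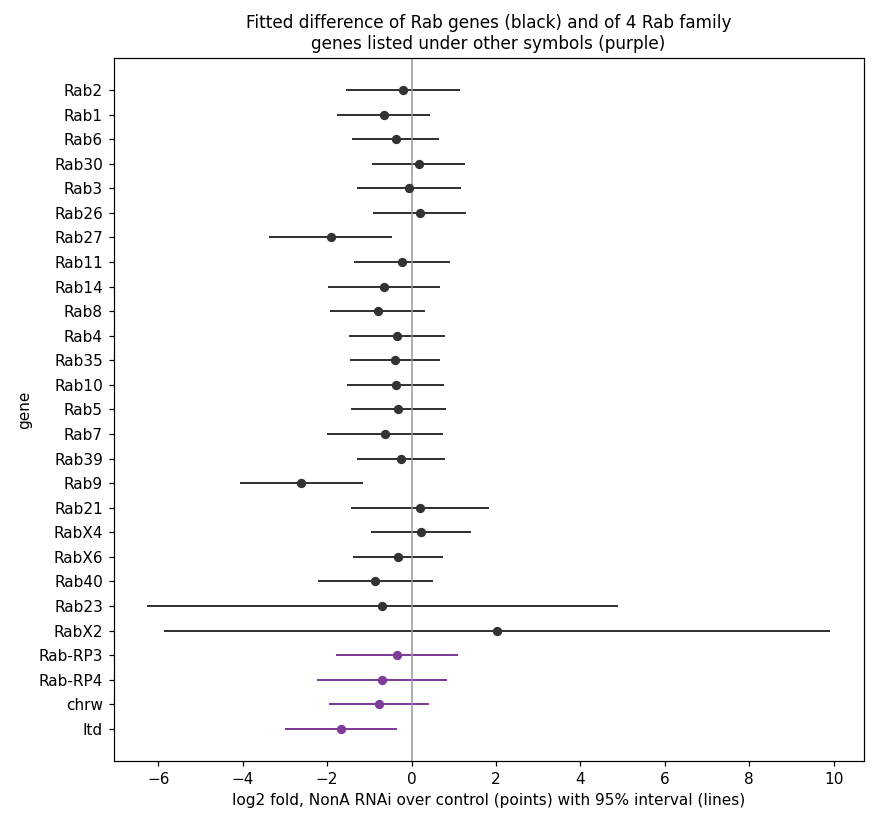
Fitted log2 fold of NonA RNAi over control (points, horizontal axis) with its 95% interval (lines) from edgeR for the 23 Rab genes tested, in black, and for the 4 family genes listed under other symbols, in purple. The intervals of Rab9, Rab27 and ltd do not reach 0, from unadjusted values, and the other 24 do; those of Rab23 and RabX2 are the widest.

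Among the Rabs of secretory vesicles, Rab27 stood apart from Rab3 and Rab26. Rab27, which in mammals docks lysosome-related and dense-core vesicles at the plasma membrane and in flies is found mainly in neurons, had 14.3 and 16.4 CPM in NonA RNAi replicates 1 and 2, against 79.2 and 36.2 CPM in control replicates 1 and 2. The NonA RNAi libraries were close to each other, the controls differed by a factor of 2.19, and the groups did not overlap. The means were 15.3 ± 1.48 CPM and 57.7 ± 30.4 CPM (SD, n = 2 each), the log2 fold was -1.91 ± 0.59 (SE), and the adjusted p of edgeR was 0.919. Without control replicate 1, the library with the highest value, the log2 fold was -1.24.

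Rab3, the synaptic vesicle Rab that in flies also sets how active zone proteins are spread over release sites, had 879 and 1148 CPM in the NonA RNAi libraries, against 1296 and 814 CPM in the controls. The controls enclosed both NonA RNAi values, and the log2 fold was -0.06 with a 95% interval from -1.27 to 1.15, and 0.02 when Pdf was left out of the library totals. Rab26, which in mammals links synaptic vesicles to autophagy, had 149 and 151 CPM in the NonA RNAi libraries, against 157 and 105 CPM in the controls. The groups overlapped here too, with a log2 fold of 0.19 ± 0.45. (SE) An exon of Rab26 overlaps an antisense RNA gene in the Ensembl annotation, as do exons of Rab1 and Rab14 with antisense or non-coding genes. Where reads were not counted by strand, which no source states, the reads of such pairs cannot be told apart.

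Among the Rabs of endosomes and lysosomes, Rab9 had the largest fitted fold of the 23 members tested. Rab9, known from mammalian cells for the return of receptors from late endosomes to the Golgi, had 7.24 and 13.1 CPM in NonA RNAi replicates 1 and 2, against 50.1 and 74.0 CPM in control replicates 1 and 2, from 70, 112, 422 and 728 reads. The lower control was 3.83 times the higher NonA RNAi library, the widest such gap among the 10 members whose groups did not overlap. The means were 10.2 ± 4.14 CPM and 62.1 ± 16.9 CPM (SD, n = 2 each), the log2 fold was -2.61 ± 0.59 (SE), and the adjusted p of edgeR was 0.827. DESeq2 gave an adjusted p of 0.0295, and over 12 alternatives of processing the adjusted p ran from 0.0295 to 0.999. The log2 fold stayed between -3.10 and -2.24 over these alternatives, the 4 libraries left out in turn included.

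The better known endosomal Rabs did not separate in this way. Rab7 had 191 and 394 CPM in the NonA RNAi libraries, against 348 and 562 CPM in the controls. NonA RNAi replicate 2 lay between the controls, and the log2 fold of -0.64 was -0.21 with NonA RNAi replicate 1 left out and -1.25 with NonA RNAi replicate 2 left out. Rab5, of early endosomes, had 317 and 430 CPM in the NonA RNAi libraries, against 421 and 507 CPM in the controls, and these groups overlapped as well, with a log2 fold of -0.31. Rab39, linked to lysosomes and autophagy, had 84.1 and 91.8 CPM in the NonA RNAi libraries, against 114 and 94.5 CPM in the controls. Its groups were apart by a factor of 1.03 in CPM, which was lost under the other scalings. Rab21, of early endosomes, had 15.3 and 23.8 CPM in the NonA RNAi libraries, against 19.7 and 14.1 CPM in the controls, with overlap and a log2 fold of 0.21.

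The Rabs of delivery to the plasma membrane and of recycling had log2 folds between -0.80 and -0.23, all 6 below 0 with all libraries in the fit. Rab8, which brings vesicles from the Golgi to the cell surface, had 129 and 181 CPM in the NonA RNAi libraries, against 299 and 242 CPM in the controls. These groups did not overlap, the log2 fold was -0.80 ± 0.46 (SE), and it lay between -1.07 and -0.58 over the libraries left out. Rab35, of the plasma membrane and endosomes, had 149 and 132 CPM in the NonA RNAi libraries, against 204 and 167 CPM in the controls, again without overlap and with a log2 fold of -0.40. Rab14, of the Golgi and endosomes, had 109 and 241 CPM in the NonA RNAi libraries, against 258 and 292 CPM in the controls. Here NonA RNAi replicate 1 alone was far below, and without it the log2 fold of -0.65 was -0.19, while without NonA RNAi replicate 2 it was -1.34.

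The remaining 3 members of this group overlapped between the groups. Rab11, of recycling endosomes, had 173 and 249 CPM in the NonA RNAi libraries, against 273 and 223 CPM in the controls, and the log2 fold moved from -0.23 to 0.01 on leaving out NonA RNAi replicate 1. Rab4, of fast recycling, had 149 and 202 CPM in the NonA RNAi libraries, against 252 and 191 CPM in the controls. An exon of Rab4 overlaps Dcr-2 on the opposite strand in the annotation, so its level is uncertain. Rab10, which serves exocytic and endosomal routes, had 110 and 154 CPM in the NonA RNAi libraries, against 201 and 142 CPM in the controls.

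Of the Rabs of the endoplasmic reticulum and Golgi, Rab1 and Rab6 lay below both controls in both NonA RNAi libraries. Rab1 had 215 and 281 CPM in the NonA RNAi libraries, against 427 and 359 CPM in the controls, a log2 fold of -0.66 ± 0.45. (SE) Rab6, of traffic within and out of the Golgi, had 65.2 and 68.5 CPM in the NonA RNAi libraries, against 86.9 and 87.1 CPM in the controls. Both pairs of Rab6 values were tight, and its log2 fold of -0.38 had a 95% interval from -1.40 to 0.64. Rab2 had 558 and 631 CPM in the NonA RNAi libraries, against 945 and 425 CPM in the controls. The controls enclosed the NonA RNAi values of Rab2, and its log2 fold of -0.20 was 0.48 without control replicate 1. Rab30, of the Golgi, had 58.0 and 75.4 CPM in the NonA RNAi libraries, against 54.3 and 64.4 CPM in the controls, with overlap and a log2 fold of 0.17.

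Less studied members followed. Rab40, which carries a SOCS box that joins ubiquitin ligases, had 29.4 and 17.9 CPM in the NonA RNAi libraries, against 34.0 and 51.5 CPM in the controls, without overlap and with a log2 fold of -0.85. RabX6 had 68.0 and 90.1 CPM in the NonA RNAi libraries, against 104 and 93.0 CPM in the controls. RabX4 had 76.6 and 121 CPM in the NonA RNAi libraries, against 100.1 and 69.1 CPM in the controls. The groups of RabX6 were apart by a factor of 1.03 and those of RabX4 overlapped; exons of RabX6 overlap Vti1a on the opposite strand and those of RabX4 overlap Kaz on the same strand, so both levels are uncertain.

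At the low end, Rab23 and RabX2 were read in part of the libraries. Rab23, a Rab of planar cell polarity in flies, had 71 and 14 reads in the NonA RNAi libraries, against 0 and 143 reads in the controls. RabX2 had 77 and 0 reads in the NonA RNAi libraries, against 0 and 19 reads in the controls. In both genes the libraries of a group differed more than the groups did, and their fitted log2 folds of -0.69 and 2.02 had standard errors of 2.29 and 3.24. RabX5 and the X-linked cluster of Rab9D, Rab9Db, Rab9E, Rab9Fa and Rab9Fb were at 0 reads in each library. A count of 0 allows up to 3 reads, or 0.310 and 0.351 CPM in NonA RNAi replicates 1 and 2 and 0.356 and 0.305 CPM in control replicates 1 and 2. Because reads with several places in the genome were kept apart from the genes by the authors, genes with close copies could be missed in this way.

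Of the 4 family genes under other symbols, ltd, the gene of lightoid, which in flies serves pigment granules of the eye, had 12.9 and 19.5 CPM in the NonA RNAi libraries, against 58.7 and 44.4 CPM in the controls. Its groups did not overlap, the log2 fold was -1.67 ± 0.54 (SE), and the adjusted p of edgeR was 0.919. The summed photoreceptor markers given above did not overlap between the groups either, and their part in the level of ltd, Rab9 or Rab27 was not tested. The gene chrw had 35.2 and 33.3 CPM in the NonA RNAi libraries, against 68.8 and 47.8 CPM in the controls, likewise without overlap. Rab-RP3 had 19.0 and 42.4 CPM in the NonA RNAi libraries, against 42.9 and 35.2 CPM in the controls. Rab-RP4, linked in other species to lipid droplets, had 15.4 and 40.8 CPM in the NonA RNAi libraries, against 39.4 and 52.0 CPM in the controls. Both of these overlapped, and NonA RNAi replicate 1 was the lowest library for each.

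The make-up of the Rab pool within a library does not depend on the scaling between libraries. As a share of all Rab reads, Rab9 made up 0.203% and 0.278% in NonA RNAi replicates 1 and 2, against 0.876% and 1.60% in control replicates 1 and 2. Rab27 made up 0.401% and 0.347% in the NonA RNAi libraries, against 1.38% and 0.782% in the controls. The exact 95% binomial intervals of the NonA RNAi libraries reached up to 0.334% for Rab9 and 0.473% for Rab27. They did not touch those of the controls, which began at 0.794% and 0.703%. The intervals of the 2 controls did not touch each other either. For Rab9 these were 0.794% to 0.963% and 1.49% to 1.72%, and for Rab27 1.28% to 1.49% and 0.703% to 0.868%. All these intervals cover counting error only, so a gap between them does not measure the spread between libraries of a group. Rab8, at 3.62% and 3.83% against 5.22% and 5.22% in the controls, and Rab1, at 6.04% and 5.96% against 7.46% and 7.76%, were the other 2 members below both controls. By the same measure 6 members were above both controls: Rab3, Rab11, Rab21, Rab26, Rab30 and RabX4. Rab3 took 24.7% and 24.3% of the Rab reads in the NonA RNAi libraries, against 22.6% and 17.6% in the controls, and Rab26 4.19% and 3.20% against 2.75% and 2.28%. Shares of a fixed total move against each other, so a lower share of some members raises that of others; no test was made of them. By CPM 0 members were above both controls. All genes were not counted on the share measure, so these numbers of members have no background to be read against.

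**Figure D3:**
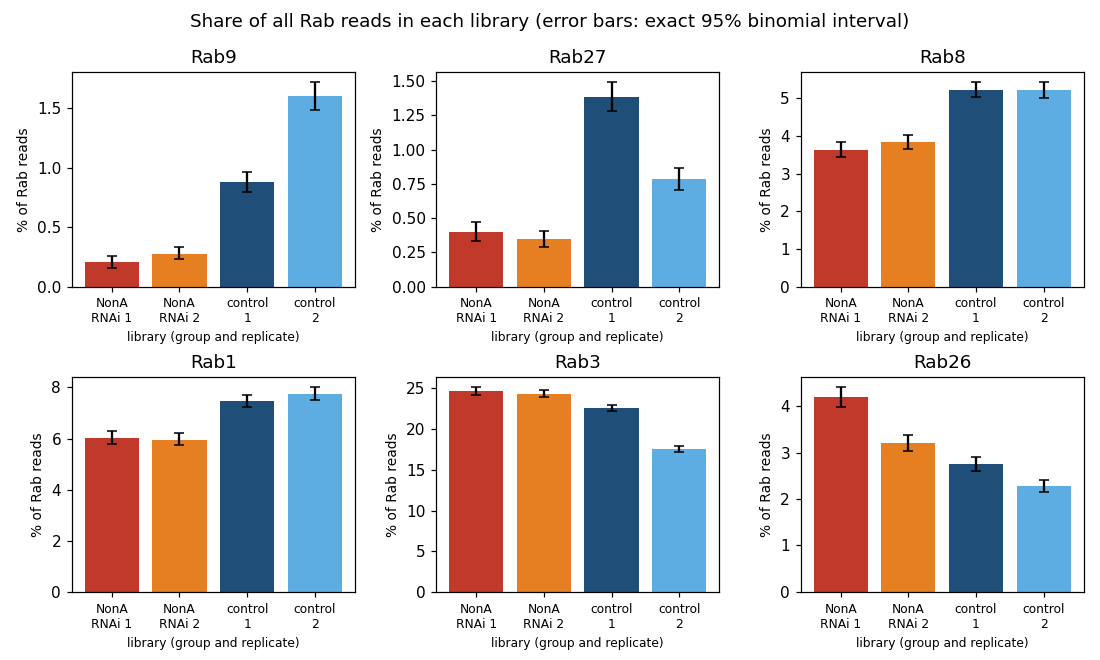
Share of all Rab reads of a library (bars, vertical axis in percent, from 0) taken by 6 members, with exact 95% binomial intervals as error bars, for the NonA RNAi libraries (red, orange) and the controls (dark and light blue). Rab9, Rab27, Rab8 and Rab1 had smaller shares in each NonA RNAi library than in either control, and Rab3 and Rab26 larger ones.

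How far single libraries set these values differed between members. For 6 of the 23 members (Rab2, Rab7, Rab14, Rab23, Rab27 and RabX2) the fitted fold moved by more than 1.5 times when a library was left out. For the 21 members with a mean of at least 10 CPM, the ratio of the higher to the lower library within a group had a median of 1.36 in the NonA RNAi libraries and 1.32 in the controls, and reached 2.22 in each, for Rab14 between the NonA RNAi libraries and for Rab2 between the controls. Apart from Rab9 and Rab27, the members whose groups did not overlap were separated by factors of 1.03 to 1.34 between the nearest libraries. The log2 folds of the 19 members with a mean of at least 10 CPM other than Rab9 and Rab27 lay between -0.85 and 0.22, with standard errors of 0.42 to 0.66 and adjusted p from 0.919 to 0.997 in edgeR, and the 95% interval of each included 0.

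**Figure D4:**
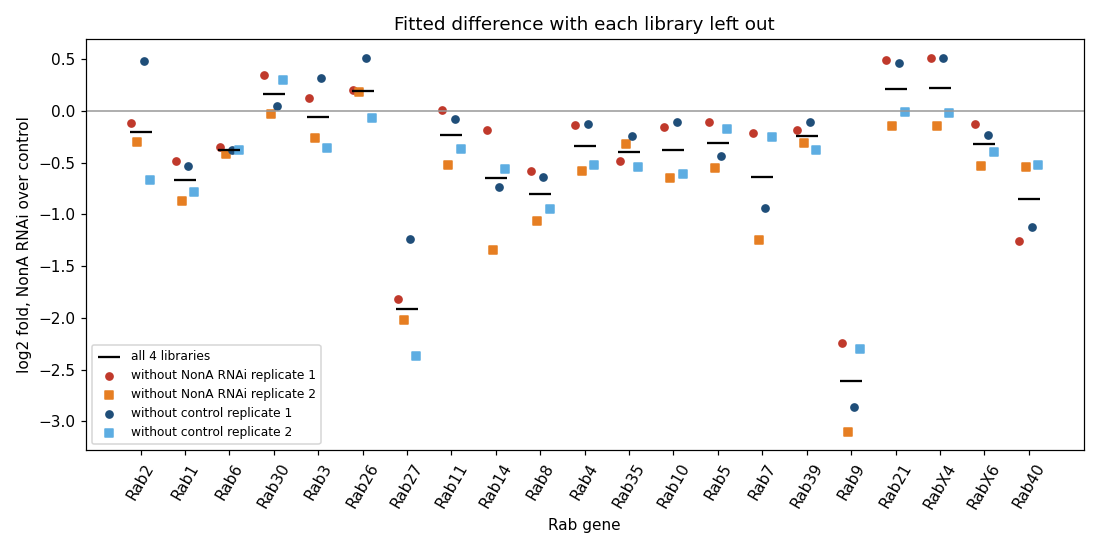
Fitted log2 fold of NonA RNAi over control for the 21 Rab genes with a mean of at least 10 CPM (vertical axis), with all 4 libraries (black bar) and with each library left out (coloured points). Rab9 and Rab27 stay below -1 in each case, and Rab6 moves least, between -0.42 and -0.35.

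The regulators that load, extract and read Rab proteins were set beside the members as a list of 32 genes, each of which was tested. In edgeR 0 of the 32 passed, beside 0.0% of all genes, 0 were under 0.05 before adjustment, and 0 were called by DESeq2. The median log2 fold was 0.05, with 17 of 32 above 0. Each NonA RNAi library was above each control for 5 of 32 and below each for 5 of 32, a share of 15.6% each, beside 15.2% and 17.5% of all genes tested. Gdi, which extracts Rab proteins from membranes, had 413 and 405 CPM in the NonA RNAi libraries, against 469 and 397 CPM in the controls. Its groups overlapped, as did those of Rep, the escort protein of Rab prenylation, at 37.4 and 27.7 CPM against 59.7 and 19.4 CPM in the controls.

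The 5 regulators above both controls were rab3-GEF (the exchange factor of Rab3), CG7112 and CG11727 (the GTPase-activating proteins GAPcenA and Evi5), car (a tethering subunit of lysosomal fusion) and Rph (rabphilin, an effector of Rab3 and Rab27). For rab3-GEF the values were 236 and 144 CPM in the NonA RNAi libraries, against 133 and 135 CPM in the controls, so that the separation of this gene came mostly from NonA RNAi replicate 1, and the log2 fold of 0.51 was 0.11 without that library. Rph, with 81.4 and 85.5 CPM in the NonA RNAi libraries and 70.0 and 79.1 CPM in the controls, had a log2 fold of 0.16 ± 0.42. (SE)

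The 5 regulators below both controls were nuf (an effector of Rab11), BicD (a motor adaptor that binds Rab6), CG9339 (skywalker, a GTPase-activating protein of Rab35 at fly synapses), RN-tre and sec15 (an exocyst subunit that binds Rab11). The level of nuf was 25.3 and 106 CPM in the NonA RNAi libraries, against 143 and 244 CPM in the controls, a log2 fold of -1.56 ± 0.75 (SE) and of -0.87 with NonA RNAi replicate 1 left out. BicD had 31.6 and 70.8 CPM in the NonA RNAi libraries, against 93.1 and 101 CPM in the controls, and CG9339 had 209 and 405 CPM, against 496 and 516 CPM in the controls. In these 3 genes NonA RNAi replicate 1 was the lowest library by a wide margin, as it was for Rab14 and Rab7.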

How the data were processed

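RNA of dvpdf neurons was measured in 2 libraries labelled NonA RNAi and 2 labelled control. Per the labels' protocols, amplified mRNA went into Illumina TruSeq libraries. Build dm3, TopHat2 2.1.1 and Cufflinks appear in the submitters' processing notes. Which counter and annotation were used, and whether strand was, is not given in the sources used here. The deposited tables hold, per the file headers, the raw read count, the length and the RPKM by gene symbol. The deposited counts are whole numbers whose totals differ between libraries. The RPKM deposited by the authors, which divides by the listed length, was used only for an alternative filter and beside the order of levels. Some symbols, Rab-RP3, Rab-RP4 and chrw among them, are listed with a length and an RPKM of 0; for these the alternative filter used the CPM. Entries without a gene name were dropped: reads with several places made up 45.2% to 55.6% of all entries, reads without a feature 27.8% to 32.5% and ambiguous reads 0.22% to 0.317%.

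Counts were divided by the sum of gene reads. Genes with a mean of at least 1 CPM over the 4 libraries (9404) were compared with edgeR 4.0.16 in R 4.3.3 (two-sided quasi-likelihood test, no TMM factors, Benjamini-Hochberg adjustment over all genes tested, threshold 0.05). The SE of a log2 fold is its size over the root of F. The biological coefficient of variation was 73.7%. DESeq2 1.42.0 was an alternative, as were other scalings and filters, the replicate number as a block and each library left out. Both tests were tested on simulated data with a smaller spread than that of these libraries. Of 100 simulated 4-fold changes edgeR recovered 8% and DESeq2 21%. Of their calls 5.83% and 20.7% were false. A gene that did not pass is thus not shown to be unchanged. Amplified RNA does not give independent molecules.

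The members, the regulator list and the markers were chosen with earlier results of these data known. Each member is named; of the regulators, those whose groups did not overlap are named (at most 6 in each direction), and Gdi and Rep were named besides for their role. Regulators that are not named are in the counts alone, and 1 gene of the list was left out of the counts and is not reported here. Names, exon lengths and overlapping genes were taken from RefSeq Release 6 and Ensembl BDGP6.54, where 29 of 29 members matched. No coordinates are given, since these builds differ from dm3. No sequences are shown.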

Additional observations from a re-analysis of the deposited data

How the results depend on the processing

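Of 272 refits of the 23 tested members under other settings, 257 kept their direction and their side of the threshold, 1 (Rab9 in DESeq2) passed it, and 14 turned their sign, all of members whose fold was not called. The turned values were 1.53 for Rab23 with the replicate number as a block and 0.0226 for Rab3 with library totals without Pdf. Leaving out each library in turn gave log2 folds from -0.52 to 0.00987 for Rab11, -0.67 to 0.48 for Rab2, -0.15 to 0.49 for Rab21, -2.14 to 8.32 for Rab23, -0.0702 to 0.51 for Rab26, -0.36 to 0.32 for Rab3, -0.0329 to 0.35 for Rab30 and -0.14 to 0.52 for RabX4. The cause of these turns was not tested. The number of members called was 0 in edgeR under each setting run and 1 in DESeq2. Over all genes it was 0 in edgeR, 79 without a filter, 142 in DESeq2 and 0 to 19 over the libraries left out, the highest without control replicate 2. No regulator was called under any setting run. The median log2 fold of the members was -0.26 to -0.29 under scaling without Pdf and TMM scaling and -0.52 to -0.17 with a library left out. The number of members whose groups were apart was 10, 7 under TMM scaling and 13 to 18 over the libraries left out, where fewer libraries need to agree. With a library left out, 10 to 16 were below and 1 to 5 above. The share of all genes was not counted under these other settings. Same-numbered libraries did not deviate together (correlation of deviations -0.01 over 9404 genes). The labels do not say whether the replicate number pairs libraries. This correlation, from 2 libraries a group, cannot exclude a shared batch. With the replicate block 0 members and 0 genes were called. Where a group kept 1 library, its spread was taken from the other group. Members under about 10 CPM rest on few reads.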
